A study of Mus musculus with 8 samples.

Results

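The G2 and mitosis genes described here were 46 genes chosen by symbol, among them Cdc20, which is the opposite-strand neighbour of the targeted gene Elovl1. The deposited table held 56805 gene symbols, of which 16006 passed the low-count filter and were tested, and all 46 genes of the list were among these. The study examined Elovl1, a fatty acid elongase, as a metabolic target in CD8+ T cells. The cells were OT-I:Rosa26-Cas9 T cells, that is, CD8+ T cells of transgenic mice that express Cas9 from the Rosa26 locus and carry a receptor for a peptide of chicken ovalbumin. They were activated in culture with CD3/CD28 beads, grown with interleukins 2, 7 and 15, and transduced with a lentiviral vector that carried a CD90.1 reporter and a guide RNA. The guide either had no target (sgNT, the control) or was directed at Elovl1 (sgElovl1). CD90.1+ cells were sorted 3 days after transduction, on day 7 of activation, for strand-specific RNA-seq. The sgNT cells thus shared Cas9, the vector, the activation and the sort with the sgElovl1 cells, and each guide was represented by a sorted pool of transduced cells rather than by a clone.

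The labels gave 8 samples, 2 of each guide in each of 2 experiments, and the table held 4 columns, each the authors' sum of the 2 mice of one guide in one experiment. There were thus 2 columns per guide, and the spread between mice could not be seen. The total count was 63623476 in sgNT and 51621372 in sgElovl1 of experiment 1, and 49068952 in sgNT and 57341720 in sgElovl1 of experiment 2, so that 3 counts corresponded to 0.0472 to 0.0611 CPM. Levels are given as CPM, the count of a gene relative to the column's total on a common scale, with the totals adjusted by TMM. Elovl1 itself, the check of the guide, was at 110 CPM in sgNT and 61.3 CPM in sgElovl1 of experiment 1, and at 93.5 and 55.8 CPM in experiment 2. Both sgElovl1 columns were below both sgNT columns, and the log2 fold change was -0.80 ± 0.07 (SE; adjusted p = 3.80e-28 with edgeR's quasi-likelihood test and Benjamini-Hochberg adjustment over all genes tested). The call was lost without a term for the experiment (adjusted p = 0.9999 by edgeR). Fits with 1 column left out had no such term and 1 column of a guide. They could not show whether the call depended on a single column. All 11 CD8 T cell markers examined were present, with a summed level of 6084 to 6387 CPM, and the summed levels of the marker lists of other cells were lower. These were 29.8 to 37.2 CPM for CD4 T cells, 7.58 to 9.79 CPM for B cells (Ms4a1 at 0), 9.31 to 14.9 CPM for myeloid cells (C1qa, C1qb, S100a8 and S100a9 at 0) and 1.03 to 1.84 CPM for natural killer cells (Ncr1 at 0).

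Cells enter mitosis when Cdk1, bound to cyclin A or cyclin B, is switched on by Cdc25 phosphatases, and the Polo and Aurora kinases then build the spindle and prepare the chromosomes. The spindle checkpoint (the Mad and Bub proteins and the kinase Ttk) holds the anaphase-promoting complex (APC/C) inactive by binding its coactivator Cdc20 until every kinetochore is attached. Cdc20 then directs the complex to securin and the cyclins, separase cuts cohesin, and the cell divides. Most of these genes are transcribed late in the cell cycle, through a cell cycle homology region (CHR) and CCAAT boxes close to the start site, and are therefore used as a readout of cycling T cells. In bulk RNA, fewer cells in G2 or mitosis and less RNA per such cell cannot be told apart.

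The promoters of 5 genes named in the results below are printed. These are Cdc20, the gene that was lower in sgElovl1 columns, and Cdk1, the gene that differed most between the experiments. The others are Cenpe and Cdc25b, which were higher in the second experiment, and Ccnb2, which was among the genes with the highest counts per exon length. Each sequence is the 250 bases before the RefSeq start (GRCm38.p6), on the gene's own strand, 5′ to 3′. They lie at chr4:118437344-118437593 (Cdc20, minus strand), chr10:69352913-69353162 (Cdk1, minus strand), chr3:135212313-135212562 (Cenpe, plus strand), chr2:131186698-131186947 (Cdc25b, plus strand) and chr9:70421555-70421804 (Ccnb2, minus strand). Capitals mark TTTGAA, the core letters of the CHR, and CCAAT, each on either strand, so that TTCAAA and ATTGG are marked as well, and no match of one motif overlapped a match of the other.
Cdc20: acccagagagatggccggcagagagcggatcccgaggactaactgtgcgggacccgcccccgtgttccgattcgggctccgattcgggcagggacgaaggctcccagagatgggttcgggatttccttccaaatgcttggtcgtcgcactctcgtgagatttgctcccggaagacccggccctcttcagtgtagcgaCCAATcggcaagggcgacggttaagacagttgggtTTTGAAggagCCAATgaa
Cdk1: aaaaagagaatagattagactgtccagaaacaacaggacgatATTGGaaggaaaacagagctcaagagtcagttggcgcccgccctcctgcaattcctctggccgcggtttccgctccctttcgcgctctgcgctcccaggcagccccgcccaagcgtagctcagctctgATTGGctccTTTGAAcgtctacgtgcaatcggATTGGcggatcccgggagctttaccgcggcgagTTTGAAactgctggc
Cenpe: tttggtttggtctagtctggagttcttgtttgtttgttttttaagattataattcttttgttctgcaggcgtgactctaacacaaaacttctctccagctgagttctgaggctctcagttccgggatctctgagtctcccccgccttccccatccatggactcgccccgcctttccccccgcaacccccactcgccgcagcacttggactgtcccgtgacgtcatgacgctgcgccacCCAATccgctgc
Cdc25b: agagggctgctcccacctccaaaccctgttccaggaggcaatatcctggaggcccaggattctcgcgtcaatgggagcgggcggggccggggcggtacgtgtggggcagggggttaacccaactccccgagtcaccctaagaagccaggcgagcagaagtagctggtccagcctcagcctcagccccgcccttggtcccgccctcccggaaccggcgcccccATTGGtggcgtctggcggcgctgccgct
Ccnb2: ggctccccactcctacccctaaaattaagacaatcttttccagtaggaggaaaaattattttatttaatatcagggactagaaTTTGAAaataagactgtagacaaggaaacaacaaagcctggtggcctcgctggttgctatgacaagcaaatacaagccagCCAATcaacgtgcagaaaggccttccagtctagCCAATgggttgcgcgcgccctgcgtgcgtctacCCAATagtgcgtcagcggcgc

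Cdc20 and Cdk1 held both motifs near their starts, whereas Cenpe and Cdc25b each held a single CCAAT box and no TTTGAA in this window. Ccnb2, which was not called between the experiments, also held both motifs. RefSeq promoters were matched for 40 of the 46 genes, with none found here for Incenp, Ccna2, Kif20a, Aurkb, Tpx2 and Cdc25c. CCAAT was present in 29 of the 40 (72.5%), against 33.8% of all 32851 promoters of the same length and 40.5% of the 10440 tested genes with a promoter. At least 2 CCAAT boxes stood in 20 of the 40, against 10.1% of all promoters and 15.4% of the tested genes. TTTGAA was present in 13 of the 40 (32.5%), against 5252 of the 32851 promoters and 13.1% of the tested genes. Both motifs occurred in 11 of the 40 (27.5%), against 5.55% of all promoters and 5.1% of the tested genes, and both within the nearest 100 bases in 8 of the 40, against 1.06% and 1.16%. These matches describe letters in the window and are not evidence of binding.

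Cdc20, the APC/C coactivator that the spindle checkpoint holds in check, was the only G2 and mitosis gene that passed the test for the guide. It stood at 212 CPM in sgNT and 171 CPM in sgElovl1 of experiment 1, and at 195 CPM in sgNT and 160 CPM in sgElovl1 of experiment 2. Both sgElovl1 columns lay below both sgNT columns, with no overlap. The log2 fold change was -0.29 ± 0.06 (SE), with a 95% interval of -0.42 to -0.17 and an adjusted p of 0.00136 by edgeR, and it was -0.31 in experiment 1 and -0.28 in experiment 2. Thus 1 of 46 genes was lower, where 0.437% of all genes tested were lower in sgElovl1, 0.762% were higher and 1.2% were called in either direction. The 4 log2 CPM values of Cdc20 gave an exact two-sided permutation p of 0.333, which is the smallest that 2 columns against 2 can reach. Without a term for the experiment Cdc20 was not called (adjusted p = 0.9999 by edgeR). With 1 column left out and no such term, the log2 fold change was -0.34 to -0.23. Those fits confound guide and experiment and could not show whether the call depended on a single column.

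Cdc20 was also lower relative to the other G2 and mitosis genes. The shares and ratios below use the same Cdc20 values as above and are not separate support for its fold change. Its share of the counts of all 46 genes was 2.44% in sgNT and 2.05% in sgElovl1 of experiment 1, and 2.58% in sgNT and 2.09% in sgElovl1 of experiment 2. Set against the geometric mean of the other 45 genes within each column, Cdc20 was at a log2 ratio of 0.64 in sgNT and 0.38 in sgElovl1 of experiment 1, and at 0.79 and 0.46 in experiment 2. The ratio was lower by guide in both experiments, with differences of -0.26 and -0.33 and a mean of -0.30 (exact permutation p = 0.333, again the smallest possible). Ube2c, the ubiquitin-conjugating enzyme that works with the APC/C, had a log2 fold change of 0.04 ± 0.06 (SE, adjusted p = 0.90 by edgeR).

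Elovl1 and Cdc20 lie next to each other on chromosome 4, and both passed the test for the guide. In the GRCm38 annotation the genes run towards each other on opposite strands and overlap at their ends by 53 exonic bases, which is 2.84% of the 1868 exon bases of Cdc20. The authors counted reads over whole genes with strand taken into account. Of the genes nearby, Med8, 12310 bases from Elovl1, had a log2 fold change of -0.04 and Hyi one of -0.02, and neither passed the test. Ptprf and Tie1 did not pass the low-count filter. The part of the overlap, or of editing at the Elovl1 locus, in the level of Cdc20 was not tested.

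The other 45 genes did not pass the test for the guide, with 23 below 0 and 22 above 0 and log2 fold changes between -0.15 and 0.20 (smallest adjusted p 0.24 by edgeR). Their standard errors were 0.06 to 0.10, and their 95% intervals together ran from -0.29 (Ect2) to 0.34 (Ttk). The median log2 fold change of the 46 genes was -0.01, against -0.01 over all genes tested. It was -0.06 in experiment 1 and 0.04 in experiment 2. At an unadjusted p under 0.05 there were 3 of 46 genes, against 10.6% of all genes tested. The sgElovl1 columns lay below both sgNT columns for 3 of 46 genes (6.85% of all genes tested) and above both for 5 (5.77%).

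**Figure D1:**
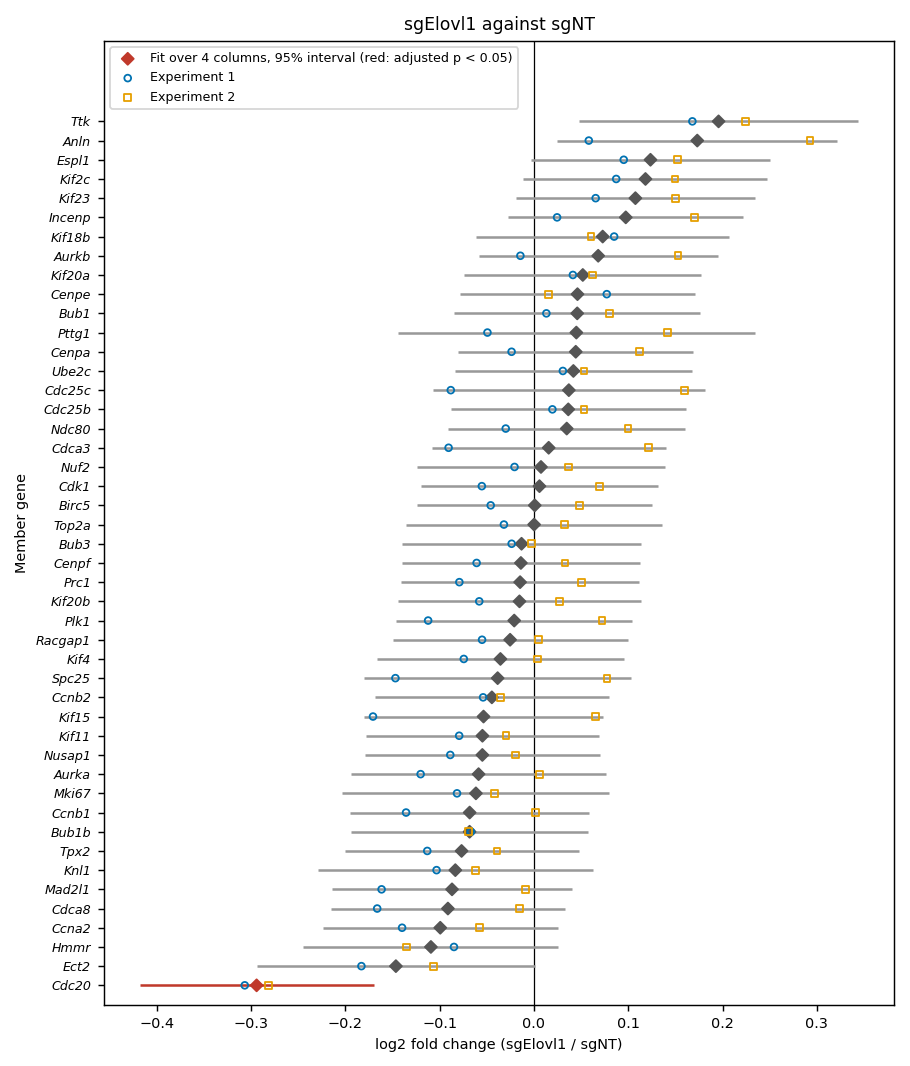
Guide log2 fold change (sgElovl1 minus sgNT) of the 46 G2 and mitosis genes, with points for the fit, bars for the 95% interval and smaller marks for each experiment. Cdc20 at -0.29 lies apart, and the others lie between -0.15 and 0.20.

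The largest values above 0 belonged to Ttk, the Mps1 kinase of the spindle checkpoint, Anln, a scaffold of the contractile ring, and Espl1, the separase that cuts cohesin. Ttk was at 38.4 CPM in sgNT and 43.1 CPM in sgElovl1 of experiment 1, and at 33.0 and 38.6 CPM in experiment 2 (log2 fold change 0.20 ± 0.08, SE; adjusted p = 0.24 by edgeR). Both sgElovl1 columns of Ttk were above both sgNT columns, by a small margin. Anln was at 39.7 and 41.4 CPM in sgNT and sgElovl1 of experiment 1 and at 31.9 and 39.1 CPM in experiment 2, with overlap between the guides (0.17 ± 0.08, adjusted p = 0.36). Espl1 was at 107 and 115 CPM in experiment 1 and at 109 and 121 CPM in experiment 2, without overlap (0.12 ± 0.06, adjusted p = 0.49).

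Below 0, the largest values after Cdc20 belonged to Ect2, the exchange factor that activates RhoA in cytokinesis, and Hmmr, a spindle-associated protein. Ect2 was at 54.0 CPM in sgNT and 47.6 CPM in sgElovl1 of experiment 1, and at 32.0 and 29.8 CPM in experiment 2 (-0.15 ± 0.08, adjusted p = 0.48 by edgeR). Hmmr was at 82.7 and 78.0 CPM in experiment 1 and at 55.2 and 50.3 CPM in experiment 2 (-0.11 ± 0.07, adjusted p = 0.61). For both, the columns of the guides overlapped, since each experiment had its own level.

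The G2 and mitosis genes differed between the experiments, most of them with lower levels in experiment 2. The median absolute log2 fold change of the 46 genes was 0.27 between the experiments, beside 0.05 between the guides. The experiment 2 minus experiment 1 contrast called 34 of the 46 genes, 27 lower and 7 higher, with 12 not called, while 55.6% of all genes tested were called (29.2% lower and 26.4% higher). The median over the 46 genes was -0.19, against -0.0025 over all genes tested, and was -0.23 within sgNT and -0.14 within sgElovl1. All 34 had the same sign within sgNT and within sgElovl1, and the experiment 2 columns lay below both experiment 1 columns for 27 genes (38.4% of all genes tested) and above both for 8 (37.4%). The 46 genes held 0.862% and 0.849% of all counts in sgNT and sgElovl1 of experiment 1, against 0.769% and 0.743% in experiment 2.

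**Figure D2:**
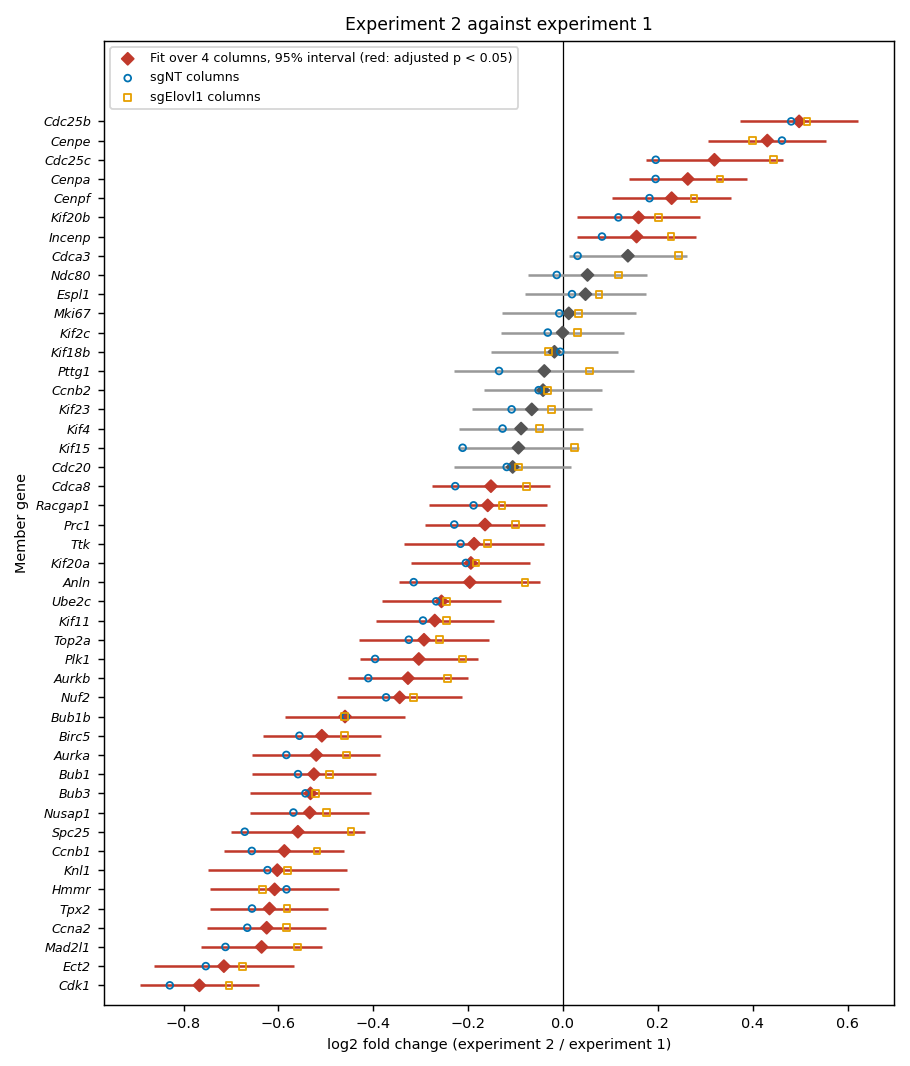
Log2 fold change between the experiments (experiment 2 minus experiment 1) of the 46 G2 and mitosis genes sorted by the fold, with 95% intervals and marks for the fold within each guide. Of the 46, 27 lie below 0 and 7 above 0 past the test, from -0.77 for Cdk1 to 0.50 for Cdc25b.

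Single genes of the marker lists of other cells differed between the experiments as well. Of the CD4 T cell list, Foxp3 was at 4.28 and 5.45 CPM in experiment 1 and 8.67 and 10.6 CPM in experiment 2. Zbtb7b was not called. Of the myeloid list, Itgam was at 0.253 and 0.399 CPM against 2.28 and 2.69 CPM, and Csf1r and Cd68 were not called. No tested gene of the B cell and natural killer cell lists was called. The summed level of 5 dendritic cell markers, with Siglech at 0, was 3.35 and 3.65 CPM in experiment 1 and 16.8 and 13.4 CPM in experiment 2. Most of it was 1 gene, Itgax, at 2.95 and 2.95 CPM against 15.99 and 12.7 CPM, while Xcr1, the only other marker of the list that was tested, was not called. The sum of 5 stromal, endothelial and epithelial markers, with Col3a1 at 0, was 26.0 and 31.8 CPM against 50.2 and 51.5 CPM. Here Pecam1 alone was at 24.7 and 29.7 CPM against 48.9 and 50.8 CPM, whereas Epcam was lower in experiment 2 (log2 fold change -1.33) and Col1a1 was not called. The part of these genes in the difference between the experiments was not tested. The culture, the handling and the mice of an experiment are shared by its columns and cannot be told apart.

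Of the 6 genes that drive entry into mitosis, Cdk1, Ccna2 and Ccnb1 were lower in experiment 2, the phosphatases Cdc25b and Cdc25c were higher, and Ccnb2 was not called. Over all genes tested, 29.2% were lower and 26.4% higher. Cdk1 was at 184 CPM in sgNT and 177 CPM in sgElovl1 of experiment 1, and at 104 and 109 CPM in experiment 2 (-0.77 ± 0.06, SE; adjusted p = 2.01e-31 by edgeR). Its level in experiment 2 was 58.8% of that in experiment 1, the lowest of the 46 genes. Ccna2, cyclin A2, was at 297 and 269 CPM in experiment 1 and at 187 and 180 CPM in experiment 2 (-0.62 ± 0.06, adjusted p = 1.32e-21). Ccnb1, cyclin B1, was at 156 and 142 CPM and at 99.1 and 99.3 CPM (-0.59 ± 0.06, adjusted p = 1.00e-18). For all 3, both experiment 2 columns lay well below both experiment 1 columns, while Ccnb2, the other B-type cyclin, was at -0.04 ± 0.06 (adjusted p = 0.60).

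The Cdc25 phosphatases, which remove the inhibitory phosphates from Cdk1, differed in the other direction. Cdc25b was at 221 and 224 CPM in sgNT and sgElovl1 of experiment 1 and at 309 and 321 CPM in experiment 2 (0.50 ± 0.06, SE; adjusted p = 4.17e-14 by edgeR). Cdc25c was at 41.3 and 38.8 CPM in experiment 1 and at 47.2 and 52.8 CPM in experiment 2 (0.32 ± 0.07, adjusted p = 4.17e-05). Neither Cdc25b nor Cdc25c had columns that overlapped between the experiments. Cdc20, by contrast, did not pass the test for the experiment (-0.11 ± 0.06, adjusted p = 0.15), and Ube2c was lower (-0.26 ± 0.06, adjusted p = 1.76e-04).

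**Figure D3:**
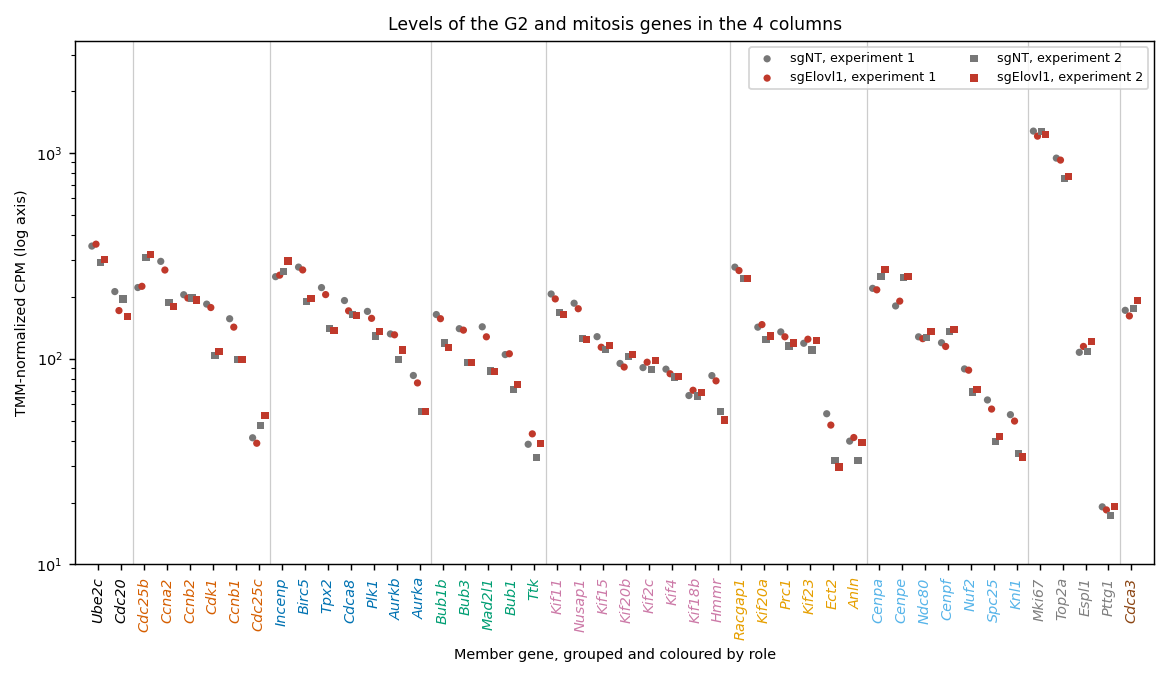
TMM-normalised level in CPM (log axis) of each of the 46 G2 and mitosis genes, grouped and coloured by role on the x axis, with 1 point per column (sgNT in grey, sgElovl1 in red; experiment 1 as circles, experiment 2 as squares). Cdc20 stands at 212 and 195 CPM in sgNT and at 171 and 160 CPM in sgElovl1, and Cdk1 at 184 and 177 CPM in experiment 1 and at 104 and 109 CPM in experiment 2.

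All 5 spindle checkpoint genes were lower in experiment 2, with a median log2 fold change of -0.53, beside 29.2% of all genes tested. Mad2l1, which carries the checkpoint signal to Cdc20, was at 143 and 128 CPM in sgNT and sgElovl1 of experiment 1 and at 87.2 and 86.6 CPM in experiment 2 (-0.64 ± 0.07, SE; adjusted p = 2.45e-21 by edgeR). The experiment 2 level was thus below every experiment 1 column. Bub3 (-0.53), the kinase Bub1 (-0.53) and its relative Bub1b (-0.46) were lower by similar amounts, and Ttk by less (-0.19, adjusted p = 0.026). The columns of Ttk overlapped between the experiments, and its call held in 3 of 8 alternatives of scaling, filter and test.

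Of the 7 genes of the mitotic kinases and the chromosomal passenger complex, 6 were lower and Incenp, the scaffold of the complex, was higher (0.16, adjusted p = 0.028 by edgeR). Among all genes tested, 29.2% were lower and 26.4% higher. Birc5, survivin, was at 278 and 270 CPM in experiment 1 and at 189 and 196 CPM in experiment 2 (-0.51 ± 0.06, SE). Aurkb, the kinase of the same complex, was at 132 and 131 CPM and at 99.2 and 110 CPM (-0.33 ± 0.06), and Plk1, the Polo kinase, was at 170 and 157 CPM and at 129 and 135 CPM (-0.30 ± 0.06). In none of these 3 did the experiments overlap. Tpx2, which activates Aurora A on the spindle, was at -0.62, Aurka at -0.52 and Cdca8, borealin, at -0.15, a call that held in 2 of 8 alternatives.

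The kinetochore genes were split, with 3 lower, 3 higher and 1 not called, beside 29.2% lower and 26.4% higher over all genes tested. Cenpe, a kinesin that carries chromosomes along microtubules, was at 180 and 190 CPM in sgNT and sgElovl1 of experiment 1 and at 248 and 251 CPM in experiment 2 (0.43 ± 0.06, SE; adjusted p = 5.95e-11 by edgeR). Cenpa, the centromeric histone H3 variant, was at 219 and 216 CPM and at 251 and 272 CPM (0.26 ± 0.06, adjusted p = 9.87e-05), and Cenpf was also higher (0.23). In each of these genes both experiment 2 columns were above both experiment 1 columns. Lower were Knl1 (-0.60), which recruits the checkpoint proteins, and Spc25 (-0.56) and Nuf2 (-0.34) of the Ndc80 complex, whereas Ndc80 itself was at 0.05 and did not pass the test.

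Of the 6 cytokinesis genes 5 were lower, beside 29.2% of all genes tested. Ect2 alone was called in all 8 alternatives of scaling, filter and test, Kif20a in 7, Prc1 and Anln in 3 and Racgap1 in 2. Ect2, whose values are given above, was lowest (-0.71 ± 0.08, SE; adjusted p = 2.36e-20 by edgeR), and the kinesin Kif20a, the microtubule bundler Prc1, Anln and Racgap1 were at -0.20 to -0.16, while Kif23 did not pass the test (-0.07). Of the 8 spindle kinesins and spindle proteins, Hmmr (-0.61), Nusap1 (-0.53), which bundles microtubules, and Kif11 (-0.27), the kinesin that pushes the poles apart, were lower and Kif20b was higher (0.16). Kif2c, Kif4, Kif15 and Kif18b did not pass the test, at -0.09 to -0.0009. The shares over all genes tested were 29.2% lower and 26.4% higher.

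Top2a, the topoisomerase that untangles sister chromatids, was at 942 and 921 CPM in sgNT and sgElovl1 of experiment 1 and at 752 and 769 CPM in experiment 2 (-0.29 ± 0.07, SE; adjusted p = 7.14e-05 by edgeR). Mki67, the coat protein of mitotic chromosomes that marks cycling cells, was at 1274 and 1204 CPM and at 1267 and 1231 CPM (0.01 ± 0.07, adjusted p = 0.90). The experiments did not overlap for Top2a and did for Mki67. Espl1 (0.05), Pttg1, securin (-0.04), and Cdca3, a substrate adaptor (0.14, adjusted p = 0.054), did not pass the test. The 95% intervals of the 12 genes without a call together ran from -0.23 to 0.26.

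The p-values rested on the dispersion shared among genes because the fit had 1 residual degree of freedom, and without a term for the experiment no gene passed the test for the guide by edgeR (19 at an unadjusted p under 0.05). Without sgNT of experiment 2, 21 of the 46 genes were called between the experiments, and with upper-quartile scaling the median of the 46 was -0.11. Of the 34 genes called between the experiments, 34 kept their sign and 27 stayed past the threshold in all 8 alternatives.

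Per exon length, the counts of the 46 genes spanned a wide range. The mean CPM per kilobase of merged exons was highest for Ccnb2 (129), Ube2c (126), Mki67 (124), Cdc20 (98.8) and Top2a (93.8), and lowest for Anln (4.20) and Knl1 (5.01). Reads were counted over whole genes, introns included, and divided by exon bases only. The values therefore hold intronic reads to an extent that was not measured, and they do not rank the genes by RNA level. Cdc20 was at 113 and 91.6 CPM per kilobase in sgNT and sgElovl1 of experiment 1 and at 104 and 85.9 CPM per kilobase in experiment 2, and its rank by mean was 4. The ranges over the columns of Ccnb2 (126 to 133), Ube2c (113 to 138) and Mki67 (120 to 127) overlapped. Within every column Ccnb2 was above Mki67, while Ube2c was above both in experiment 1 and below both in experiment 2. Cdc20 was above Top2a (83.4 to 104) in each column except sgElovl1 of experiment 1 (91.6 against 102). Pseudogenes named after Ccnb1 and Ccnb2 held 6 to 17 and 7 to 26 counts per column, and reads shared with such copies could not be traced in the table.

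Other genes of the same pathways were examined in lists. Of 19 further APC/C genes, none passed the test for the guide (none at an unadjusted p under 0.05, edgeR), with a median log2 fold change of -0.02, and the smallest p belonged to Ube2s (-0.12), which extends ubiquitin chains on APC/C targets. Between the experiments 11 of the 19 were lower and 8 not called, with a median of -0.22, beside 29.2% lower over all genes tested. Of 84 tested genes of G2, mitosis and chromosome segregation outside the 46, none passed for the guide (11 at an unadjusted p under 0.05; median 0.01), and the smallest p belonged to Psrc1, a spindle protein, at 0.22. Of all genes tested, 10.6% had such an unadjusted p. Between the experiments 49 of the 84 were lower and 13 higher, with a median of -0.22, beside 29.2% lower and 26.4% higher over all genes tested.

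Of 18 regulators of the transcription of such genes, 13 were lower and 1 higher in experiment 2 (median -0.51). Over all genes tested, 29.2% were lower and 26.4% higher. None of the 18 passed the test for the guide, and the smallest p belonged to Rbbp4 (-0.14), a subunit of the MuvB complex. An unadjusted p under 0.05 was reached by 1 of the 18, beside 10.6% of all genes tested. Chosen after their values were seen, Mybl2, the B-Myb activator, was at 73.5 and 75.2 CPM in experiment 1 and 39.1 and 39.7 CPM in experiment 2 (-0.92 ± 0.07, SE), and Foxm1 was at 170 and 166 CPM and at 166 and 174 CPM (0.02 ± 0.06, adjusted p = 0.83 by edgeR). Mybl2 thus separated the experiments and Foxm1 did not.

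**Figure D4:**
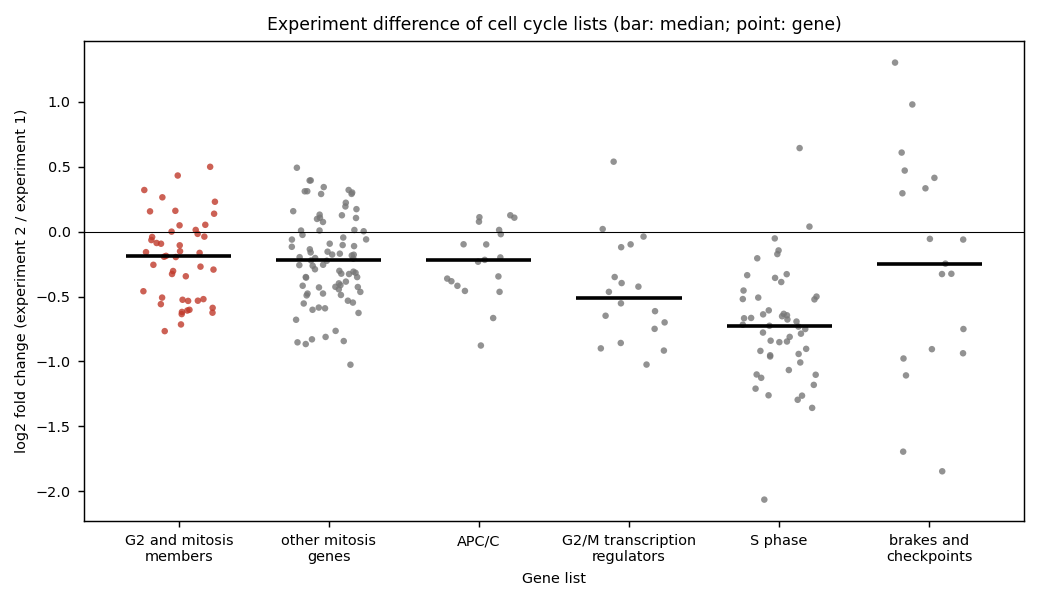
Log2 fold change between the experiments (experiment 2 minus experiment 1, y axis) of the 46 G2 and mitosis genes and of 5 other cell cycle lists (x axis), with 1 point per gene and a bar at the median. The median is -0.19 for the 46 genes, -0.22 for the other mitosis genes and for the APC/C, and -0.73 for S phase.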

How the data were processed

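The authors deposited raw counts per gene. According to the submitters' processing notes and the methods of the study, reads were aligned with STAR 2.7.10b to GRCm39, counted over whole genes with featureCounts 2.0.1 (reverse-stranded, introns included) and merged over the 2 mice of each experiment, after which the authors tested with DESeq2 1.42.0 in R 4.3.3. The 8 labelled samples therefore entered as 4 columns. Here the deposited counts were filtered by expression, scaled by TMM and fitted with edgeR 4.0.16 (quasi-likelihood F test, guide and experiment as terms, 1 residual degree of freedom), with Benjamini-Hochberg adjustment over 16006 genes and a threshold of 0.05. The biological coefficient of variation was taken from the trend over expression that the fit used. Its median was 4.27% at the G2 and mitosis genes and 7.44% over all genes. Standard errors are the log2 fold change divided by the square root of F, and intervals cover 95%. The total counts, given with the results, set the precision, and floors of 3 counts cover counting error only. Because each column is a sum, the p-values do not measure the spread between mice. The fit gave each gene a spread between columns shared over genes of similar level. Its prior degrees of freedom were infinite, so a gene's own spread had no weight in the p-values and intervals.

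The 46 genes and the other lists were chosen with earlier results of these data known. Values in every column are given for Elovl1, Cdc20, genes called for the guide, the 3 largest guide folds in each direction, the 4 largest experiment folds in each direction, and Ccnb1, Cdk1, Plk1, Aurkb, Top2a, Mki67 and Birc5. Of each other list, genes called for the guide are named, or the 1 with the smallest p. The fit was tested on simulated data. Alternatives were DESeq2 size factors, upper-quartile factors, mitochondrial genes and the 20 largest genes left out of the scaling, no filter, a mean of at least 5 CPM, DESeq2 1.42.0 (Wald and likelihood ratio), limma-voom (limma 3.58.1), no second term, and each column left out. Repeating them for the other lists and for the experiment effect over all genes was chosen after seeing the data. Overlap and lengths came from GENCODE M21 and promoters from RefSeq (GRCm38.p6), another build than the counts, used for names, lengths and sequences only. Promoters were searched on both strands with Python 3.11.15. Some genes near Elovl1 and 1 marker list are not reported here.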

Additional observations from a re-analysis of the deposited data

Results flagged for a closer look

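For 7 of the 46 G2 and mitosis genes, the sgElovl1 column lay below the sgNT column in experiment 1 and above it in experiment 2, by more than 2 standard errors of counting in each. The log2 fold changes by guide were -0.055 and 0.070 for Cdk1, -0.11 and 0.072 for Plk1, -0.17 and 0.065 for Kif15, -0.032 and 0.032 for Top2a, -0.046 and 0.049 for Birc5, -0.090 and 0.12 for Cdca3, and -0.088 and 0.16 for Cdc25c, in experiments 1 and 2. The difference between the experiments was not tested, since 1 column of each guide and experiment leaves no residual degree of freedom, and counting error does not include the spread between mice. In all, 20 of the 46 genes had opposite signs in the experiments and 26 the same sign. The share over all genes tested was not computed. The 7 genes ran the same way as the median of the 46, which was -0.06 in experiment 1 and 0.04 in experiment 2.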

How the results depend on the processing

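Cdc20 stayed past the threshold in all 8 alternatives of scaling, filter and test, with log2 fold changes of -0.30 to -0.27 and adjusted p from 2.20e-04 (limma-voom) to 0.0439 (DESeq2 Wald), and no other of the 46 genes passed for the guide in any of them. Without the experiment term, Cdc20 was at -0.29 (adjusted p = 1.00 by edgeR), 0 of the 46 genes and 0 genes in all passed for the guide (19 at an unadjusted p under 0.05), and 0 genes of the other lists passed. Leaving out one column at a time, with one term, gave -0.34 to -0.23 for Cdc20, 0 of the 46 genes, 0 of the other lists, 0 to 6 genes in all (235 at an unadjusted p under 0.05 where none passed) and a median guide log2 fold change of the 46 genes of -0.10 to 0.16. Those fits confound guide and experiment. The 192 genes called for the guide (122 higher and 70 lower) became 94 with no filter, 35 with a mean of at least 5 CPM and 26 with either DESeq2 test, and the split under other scalings was 132 higher and 44 lower (DESeq2 size factors), 182 and 57 (upper quartile) or 173 and 44 (mitochondrial and large genes left out). Genes of the other lists past the threshold for the guide numbered 2 with upper-quartile factors and 2 with mitochondrial and large genes left out of the scaling, since Psrc1 (0.23 and 0.24) was added to Elovl1. The median experiment log2 fold change of the 46 genes was -0.11 with upper-quartile factors and -0.13 with a mean of at least 5 CPM. Upper-quartile factors moved the median of all genes by experiment to 0.08. The experiment calls numbered 28 to 35 of the 46 genes in the 8 alternatives and 21 to 31 without single columns, with 21 without sgNT of experiment 2. Of the 34 experiment calls, 27 held in all 8 alternatives, Kif20a in 7, Kif20b in 6, Ttk, Prc1 and Anln in 3, and Cdca8 and Racgap1 in 2. The cause of these changes was not tested. No paired analysis was possible because each column sums the numbered mice of one guide and experiment. This holds for pairing by mouse, while the experiment term already compared the guides within each experiment. The lowest count of any of the 46 genes in a column was 867, and the spread between mice, rather than depth, was what the columns did not show.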

Other observations

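The S phase genes and the cell cycle brakes, which act before or beside the genes above, were compared in the same fit. Of 51 S phase genes none passed the test for the guide (6 at an unadjusted p under 0.05, edgeR; median log2 fold change -0.06), and the smallest p belonged to Ccne2, cyclin E2, at 31.3 and 23.4 CPM in sgNT and sgElovl1 of experiment 1 and 12.7 and 11.3 CPM in experiment 2 (-0.30 ± 0.10, SE; adjusted p = 0.088). For the guide, 10.6% of all genes tested had an unadjusted p under 0.05. Between the experiments 47 of the 51 were lower and 1 higher, with a median of -0.73, where 29.2% and 26.4% of all genes tested were. Of 19 brakes and checkpoint genes none passed for the guide (1 at an unadjusted p under 0.05), with the smallest p for Atr, the kinase that senses replication stress (0.14 ± 0.07), and 9 were lower and 7 higher in experiment 2, beside 29.2% lower and 26.4% higher over all genes tested. Chosen after its values were seen, Cdkn1a, the p21 inhibitor of cyclin-dependent kinases, was at 86.4 and 78.9 CPM in experiment 1 and 23.4 and 22.6 CPM in experiment 2 (-1.84 ± 0.07).

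The 46 G2 and mitosis genes lay on 16 chromosomes. Over these genes, the experiment log2 fold change had a Pearson r of 0.28 and a Spearman rho of 0.30 with the GC content of the longest transcript (n = 46 genes measured in the same 4 columns), beside 0.14 and 0.19 over all genes tested, and an r of 0.12 with exon length. TTTGAA stood before the start of 7 of the 23 genes with a promoter that were lower in experiment 2, of 0 of the 5 that were higher and of 6 of the 12 not called, and CCAAT before 17, 4 and 8 of them. The numbers are small and are given as a description.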
